A study of Mus musculus with 2 samples.

Results

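The cells described here are thymic epithelial cells (TECs) of the mouse medulla that held much Ccl21a and little Ccl11. They were taken from every kept cell by fixed limits, all in unique molecular identifiers (UMIs, each a captured RNA molecule) per 10000 UMIs of the cell. A cell had at least 60 Ccl21a, under 2 Ccl11, under 1 Aire, under 15 Psmb11 and Prss16 together, under 4 Mki67 and Top2a together, under 6 over Mcm2 to Mcm7, and under 5 Avil and Trpm5 together. Kept cells had more than 2000 and fewer than 7500 detected genes and under 15% mitochondrial UMIs. The limits took 366 of 3233 kept cells of the control library and 579 of 5072 kept cells of the irradiated library, 945 of 8305 in all. The levels of those 15 genes thus chose the cells and are given below as a description only.

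TECs of C57BL/6 female mice, sorted as EpCAM+ CD45- TER119- cells, were compared by droplet single-cell RNA-seq between mice killed 15 days after a sublethal dose of γ-rays to the whole body and age-matched unirradiated mice. Each library pooled the TECs of 3 mice, and there was 1 library per condition, so no difference between conditions has a replicate check and none was tested. Their age is recorded as 9 weeks in the age field, whereas the protocol text speaks of 4 weeks. The libraries held 4937 barcodes with 58185309 UMIs (control) and 7167 barcodes with 82201657 UMIs (irradiated). The sample labels call the library that is control here irradiated, and the reverse. The names of the deposited files are followed here, since the study counts fewer kept cells for the control, as for the library so named. Every direction between the libraries below would reverse under the labels. The libraries shared 17 barcodes, among them 1 control and 0 irradiated cells of this kind. No doublet caller was used, and only the upper limit of detected genes limited doublets.

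CCL21 is a chemokine that draws thymocytes bearing the receptor CCR7 from the cortex to the medulla after positive selection, and Ccl21a is the gene that makes it in the mouse thymus. Medullary TECs that make much of it belong mostly to the MHC class II-low fraction, carry the basal keratins KRT5 and KRT14, and lie apart from the AIRE+ cells that display tissue-restricted antigens. CCL11, or eotaxin, is a chemokine for eosinophils and other cells with the receptor CCR3.

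The cells had a median of 10712 UMIs and 3568 detected genes (control), and of 9465 UMIs and 3355 genes (irradiated). Their summed UMIs were 4269421 and 5934908, so that the 3 UMIs taken as a floor correspond to 0.00703 and 0.00505 per 10000. The median mitochondrial share was 6.45% and 6.16%. A level below is the summed UMIs of a gene per 10000 summed UMIs of the cells of a library, with the exact Poisson 95% interval, which covers counting error only. Each UMI was read from the 3' end of a transcript, and so levels were not divided by gene length. A log2 ratio has 0.5 UMIs added on each side, and its range combines the opposite ends of both intervals.

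Ccl21a was spread widely over the cells. It ran from 60.3 to 414 UMIs per 10000 in control cells, with a median of 114.6, and from 60.2 to 422 in irradiated cells, with a median of 116.0. Just inside the limit, at 60 to 70, lay 28 control and 45 irradiated cells, and just outside, at 50 to 60, lay 26 and 43, so the cells form no island. Ccl11 was at 0 UMIs in 71.3% of the control cells (261 of 366) and 72.9% of the irradiated cells (422 of 579). At 1 to 2 Ccl11 UMIs per 10000 lay 68 control and 109 irradiated cells, and 44 and 69 lay at 2 to 3, just outside. After each cell was thinned at random to 4000 UMIs, which left out 2 irradiated cells, 11.2% of control and 12.0% of irradiated cells had a Ccl11 UMI, against 28.7% and 27.1% without thinning. The thinned shares were 11.8% and 9.32% in tuft-like cells, taken as cells with at least 5 Avil and Trpm5 UMIs per 10000, which should lack the gene (161 in each library, with medians of 13713 and 10759 UMIs). The limit on Ccl11 fixed the low shares in the chosen cells, whereas tuft-like cells had no such limit, so nothing is read from their likeness.

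**Figure D1:**
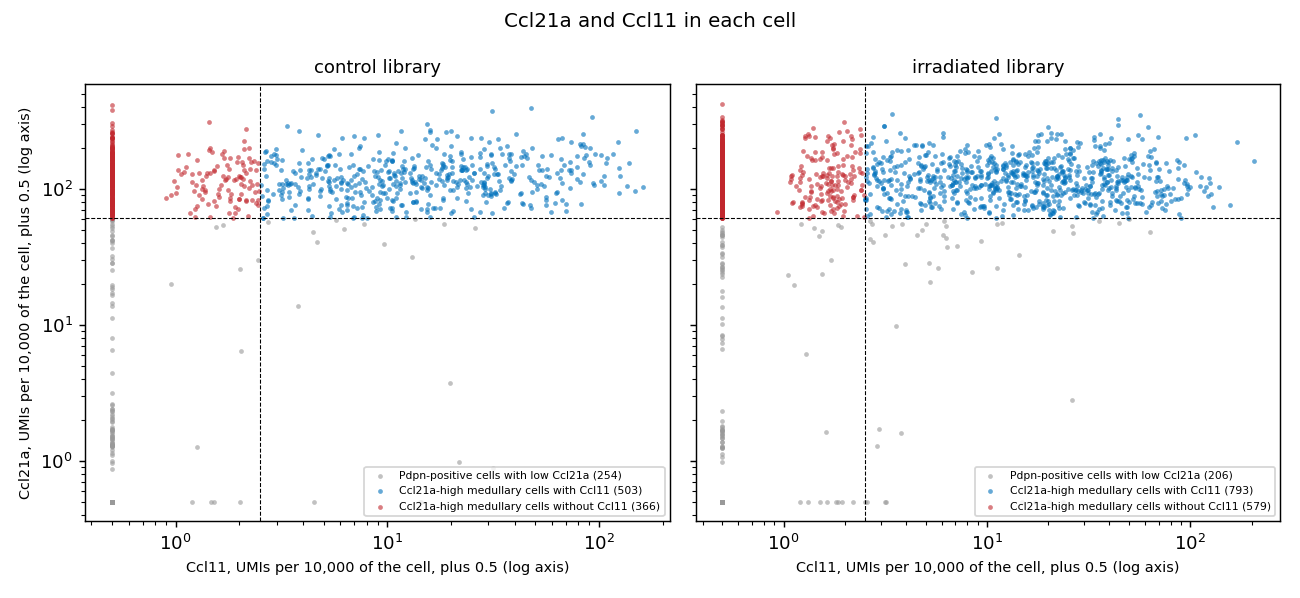
Each point is a cell, with Ccl11 on the horizontal and Ccl21a on the vertical axis, both as UMIs per 10000 plus 0.5 on log axes, for the control library (left) and the irradiated library (right). The cells without Ccl11 (red, 366 and 579) reach 414 and 422 Ccl21a, and those with Ccl11 (blue, 503 and 793) reach 392 and 352. Both start at the limit of 60. The dashed lines are the limits, and Pdpn-positive cells with low Ccl21a (grey) lie below.

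The deposited table lists Ccl21a at chr4:42772860-42773993 of GRCm38 on the minus strand, with 52938 control and 76858 irradiated UMIs in the cells. The near-identical copy Gm21541 had 46 and 47 UMIs, Gm13304 had 2 and 3, and the rows of Ccl21b and Ccl21c had 0. Reads of these copies can be assigned wrongly, and so the UMIs of Ccl21a are uncertain to that extent. Its promoter is shown because Ccl21a defines the cells. The 250 bases before the start, at chr4:42773992-42774241 on the minus strand (RefSeq, GRCm38.p6), are in lower case throughout, since none of the motifs searched on both strands was found there. These were the interferon-stimulated response element (ISRE), searched as GAAANNGAAA, the AP-1 element, searched as TGANTCA, the TATA box, searched as the letters TATAAA, and the kappaB element.
Ccl21a: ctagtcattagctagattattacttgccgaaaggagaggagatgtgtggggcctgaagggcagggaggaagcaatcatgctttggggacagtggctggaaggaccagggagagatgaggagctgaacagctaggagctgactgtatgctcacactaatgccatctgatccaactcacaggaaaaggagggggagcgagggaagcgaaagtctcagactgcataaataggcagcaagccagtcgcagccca

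Of the other markers given for these cells, Krt5, the basal keratin, was at 16.5 (16.1 to 16.9) and 16.5 (16.2 to 16.8) UMIs per 10000 (control, then irradiated). Gpx3, the secreted glutathione peroxidase, was at 3.12 (2.96 to 3.30) and 3.48 (3.34 to 3.64). Col6a2, a chain of collagen VI, was at 2.01 (1.88 to 2.15) and 1.91 (1.80 to 2.02). All 3 lay above the level in all other kept cells, with log2 ratios of 1.47 and 1.08 for Krt5, 1.26 and 1.42 for Gpx3 and 1.26 and 1.05 for Col6a2. Against Ccl21a-high cells with Ccl11 they were lower, however, and so Gpx3 and Col6a2 do not mark the cells without Ccl11 among Ccl21a-high cells. After thinning, a Gpx3 UMI was found in 45.4% and 46.1% of the cells and a Col6a2 UMI in 47.8% and 47.0%, against 11.8% and 13.04%, and 6.21% and 6.83%, of tuft-like cells. Without thinning, the shares were 57.7% and 58.4% for Gpx3 and 72.1% and 67.5% for Col6a2.

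Keratins of basal and simple epithelium were present together. Krt17, the most abundant of 15 listed keratins, was at 48.2 (47.5 to 48.8) and 45.5 (44.9 to 46.0) UMIs per 10000, and Krt14 was at 21.6 (21.2 to 22.1) and 19.1 (18.8 to 19.5). Krt8 and Krt18, the pair of simple epithelium, were at 16.7 and 16.8, and at 16.9 and 17.3. Epcam, the antigen of the sort, was at 7.17 and 7.98.

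Among chemokines and cytokines that medullary cells send to thymocytes and dendritic cells, Ccl19, the other ligand of CCR7, was at 5.98 (5.75 to 6.22) and 6.84 (6.63 to 7.05) UMIs per 10000. Il7, a survival factor of thymocytes, was at 2.49 (2.34 to 2.64) and 2.62 (2.49 to 2.75). Cxcl12, the ligand of CXCR4, was at 1.85 (1.73 to 1.99) and 2.23 (2.12 to 2.36). Ccl25, the ligand of CCR9, was at 0.878 (0.792 to 0.972) and 1.498 (1.40 to 1.60). Thinned shares of cells with a Ccl19 UMI were 65.3% and 62.9%, against 9.94% and 11.2% of tuft-like cells, and the unthinned shares were 81.1% and 77.0%.

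Of the TEC transcription factors, Fezf2, which drives antigens independent of Aire, was at 1.72 (1.59 to 1.85) and 1.47 (1.38 to 1.57) UMIs per 10000, and was found in 39.6% and 35.7% of thinned cells, against 14.9% and 14.3% of tuft-like cells (62.3% and 56.5% without thinning). Foxn1, the master factor of TECs, was at 0.497 (0.432 to 0.568) and 0.514 (0.458 to 0.575). Of the MHC class II genes, Cd74, the invariant chain, was at 104 (103 to 105) and 112 (111 to 113), and H2-Aa was at 39.5 (38.9 to 40.1) and 43.2 (42.6 to 43.7). Summed over the 9 listed MHC class II genes, the level was 239.2 (control) and 260.5 (irradiated), below the 362.2 and 357.0 of all other kept cells. Igfbp5, a binding protein of insulin-like growth factors, was at 21.6 (21.1 to 22.02) and 20.9 (20.6 to 21.3), the most abundant of 22 listed genes for growth factors, their binding proteins and other secreted factors.

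Most defining markers of other cell types were at or near 0, whereas Dcn, the contractile genes Tagln and Acta2 and the pericyte marker Rgs5 were present. Of 10 fibroblast markers, Dcn, the proteoglycan decorin, held 2.92 and 2.29 of summed levels of 3.22 and 2.602 UMIs per 10000, whereas Pdgfrb had 0 control UMIs and 1 irradiated UMI. Of 8 markers of blood endothelium, Kdr was at 0 in both libraries and the sum was 0.0515 and 0.0640, with Pecam1 most abundant. Of 5 markers of lymphatic endothelium, Flt4 was most abundant and the sum was 0.0422 and 0.0169, with Reln and Mmrn1 at 0 in the irradiated cells. The 14 thymocyte markers summed to 0.372 and 0.354, led by Trbc2, with Ptcra at 0. The 10 markers of myeloid and B cells summed to 0.0890 and 0.142, led by Lyz2, with Itgax, Adgre1, Cd79a, Ms4a1 and Flt3 among those at 0. The 5 red cell genes had no UMI in the control cells and summed to 0.0101 in the irradiated cells, led by Hbb-bt. The 8 tuft cell genes, 2 of them held low by the limits, summed to 0.883 and 0.846, nearly all from Dclk1. The 6 markers of pericytes and smooth muscle summed to 33.8 and 29.5, near the 32.4 and 32.5 of Ccl21a-high cells with Ccl11 and above the 10.5 and 12.1 of all other kept cells. Tagln (15.3 and 13.1) and Acta2 (12.1 and 10.7), which encode the actin-binding protein transgelin and smooth muscle actin, made up most of it. Cspg4, the pericyte proteoglycan NG2, had 4 and 6 UMIs, whereas the other 5 markers of the list had at least 100 UMIs over both libraries. Rgs5, a marker of pericytes, was among those 5. An Acta2 UMI was found in 58.2% and 48.5% of thinned cells, against 64.2% and 59.3% of cells with Ccl11 and 9.94% and 4.35% of tuft-like cells (62.0% and 54.9% without thinning).

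Ccl21a-high cells with Ccl11, chosen by the same limits except for at least 2 Ccl11 UMIs per 10000, comprised 503 control and 793 irradiated cells, with medians of 10472 and 10016 UMIs. Both kinds of cell came from the same libraries, and the Ccl11 limit separated them, so the differences below describe the split and were not tested. A gene was called when its log2 ratio was at least 1, or at most -1, in both libraries, among genes with at least 100 UMIs over both kinds of cell in each library. Of 8858 such genes, 33 (0.373%) were higher and 41 (0.463%) were lower in the cells without Ccl11, Ccl11 included. Ccl21a differed little, with log2 ratios of -0.07 and 0.04.

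The genes higher in the cells without Ccl11 in both libraries had varied roles. S100a2, a calcium-binding protein, was higher by log2 ratios of 2.03 in the control and 2.05 in the irradiated library. Mgll, the monoacylglycerol lipase, was higher by 2.04 and 1.52. Crip3, the thymus LIM protein, was higher by 1.88 and 2.12. Tbata, named for its presence in thymus, brain and testis, was at 4.38 (4.18 to 4.58) and 5.59 (5.40 to 5.78) UMIs per 10000 against 1.60 and 1.74 in cells with Ccl11. Its log2 ratios were 1.45 and 1.68, and it was the most abundant of the 33 genes in both libraries. Thinned shares with a Tbata UMI were 31.7% and 36.2% against 18.9% and 20.1%, with 19.3% and 19.9% in tuft-like cells (47.5% and 54.4% in the cells without Ccl11 without thinning). Kitl, or stem cell factor, was higher by 1.72 and 1.42, Fn1, or fibronectin, by 1.43 and 1.32, and Fbln5, an elastic fibre protein, by 1.59 and 1.62. Ache, Cdh4, Kndc1, Cd72, Pcdh18, Pvalb, Shisal1 and Mybpc1 were also among the 15 highest.

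The list of genes of cortical TECs (cTECs) held 1 call. Of 10 cTEC genes, 7 reached the minimum of UMIs, 1 (Kitl) was called higher and 0 lower, and the sum was 37.0 and 47.3 UMIs per 10000 against 26.3 and 31.0 in cells with Ccl11. Most of that sum was Ctsl, the lysosomal cathepsin L, at 32.2 and 40.9 against 23.3 and 27.4. Ccl25 was higher by log2 ratios of 0.96 and 1.53. Prss16, the thymus-specific serine protease, and Psmb11, the thymoproteasome subunit, were limited together to under 15 in both kinds of cell, and were at 0.735 and 1.11, and at 0.145 and 0.239, against 0.342 and 0.560, and 0.0436 and 0.0570, in cells with Ccl11. A Ccl25 UMI was found in 15.0% and 22.5% of thinned cells without Ccl11, near the 13.7% and 18.0% of tuft-like cells, and a Crip3 UMI in 10.4% and 13.7%, at or below the 11.8% and 19.3% of tuft-like cells. A Mgll UMI was likewise found in 11.2% and 12.3%, below the 18.0% and 28.0% of tuft-like cells. In cells with Ccl11 the thinned shares were lower than in both, at 2.19% and 5.93% for Crip3 and 4.37% and 5.30% for Mgll. For Ccl25 they were 11.5% and 14.2%. Without thinning, these shares of the cells without Ccl11 were 27.9% and 34.7% for Ccl25 and 17.5% and 21.8% for Crip3.

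The genes lower in the cells without Ccl11 included chemokines, chitinase-like genes and matrix genes. Ccl8 and Ccl7, chemokines for monocytes, were lower, with log2 ratios of -2.33 and -2.98, and of -1.64 and -1.93. Both are neighbours of Ccl11 on chromosome 11 of GRCm38, where Ccl7 lies at chr11:82045712-82047525, Ccl11 at chr11:82057823-82062955 and Ccl8 at chr11:82115185-82116799. Within the cells without Ccl11, 1 cell held 39.7% of the control and 31.9% of the irradiated Ccl8 UMIs, and 16.3% and 37.8% of those of Ccl7. A Ccl8 UMI was nevertheless found in more of the cells with Ccl11, at 9.54% and 13.6% of thinned cells against 1.64% and 1.91% of those without (13.9% and 19.7% against 2.73% and 4.66% without thinning). In tuft-like cells the thinned shares were 2.48% and 1.24%, so the few Ccl8 UMIs of the cells without Ccl11 were near background. Chil3 and Chil4, chitinase-like proteins, were lower, at -3.01 and -2.52, and at -2.27 and -3.49, as was Ear2, a ribonuclease known from eosinophils, at -2.76 and -2.16. Gm42722, Tac1, Ces1b, Zmat4, Mctp1, Ass1, Gpx2, Foxq1, Cyyr1 and Vit were the others of the 15 lowest.

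Of 24 collagen and matrix genes that reached the minimum, 1 (Fn1) was higher and 4 were lower, namely Col3a1 (-2.03 and -1.15), Col5a2 (-1.37 and -1.23), Col6a2 (-1.09 and -1.10) and Col14a1 (-1.06 and -1.78). Col6a1, the partner chain of Col6a2, had log2 ratios of -0.77 and -0.81. The summed level of the list was 28.4 and 27.4 UMIs per 10000, against 34.8 and 34.0 with Ccl11. Gpx3 had -0.97 and -0.68 and was not called. Of 12 Notch pathway genes that reached the minimum, the receptor Notch3 (-1.44 and -1.67) and the target Hey2 (-1.33 and -1.16) were lower and none was higher. Over all 8858 genes tested against cells with Ccl11, 0.373% were higher and 0.463% lower, as given above. Timp1, an inhibitor of matrix proteases, was lower, at -1.05 and -1.74. Among the 25 interferon response genes, 9 MHC class II genes, 15 MHC class I genes, 18 AP-1 and immediate early genes and 13 heat shock genes tested here, none was called either way.

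**Figure D2:**
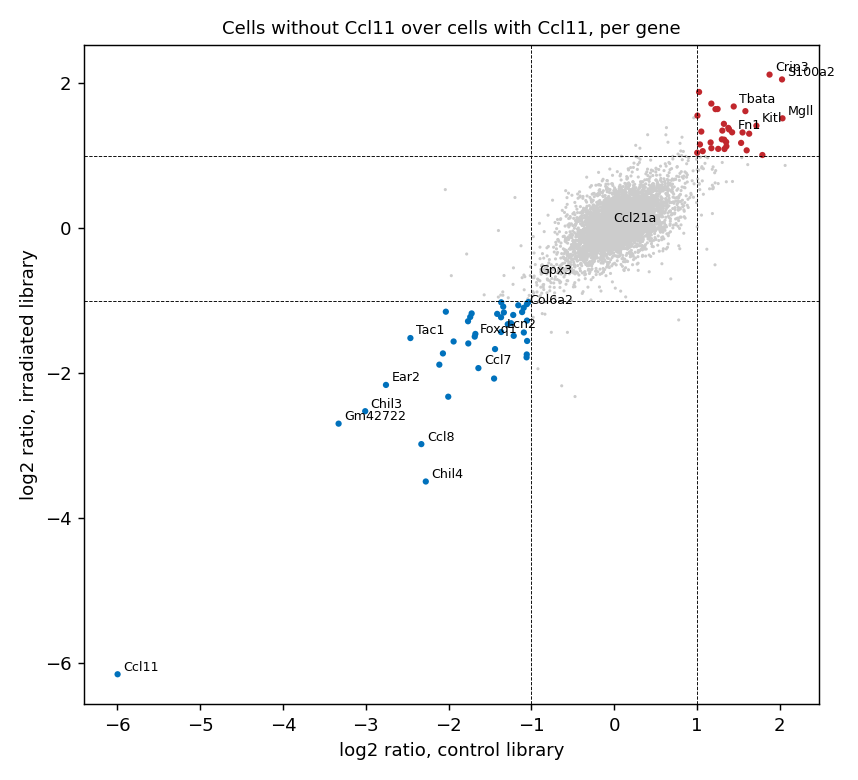
Each point is a gene, with the log2 ratio of cells without over cells with Ccl11 in the control library on the horizontal axis and in the irradiated library on the vertical axis, and dashed lines at -1 and 1. The 33 genes called higher (red) and the 41 called lower (blue) lie in opposite corners, and the other genes (grey) cluster around 0.

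Pdpn-positive cells with low Ccl21a were taken for comparison, with at least 1 Pdpn and under 60 Ccl21a UMIs per 10000. The other limits were as above, except that Ccl11 was left free and reached 31.1 in control and 62.8 in irradiated cells. There were 254 control and 206 irradiated cells of this kind, with medians of 9864 and 9351 UMIs. Their Ccl21a reached 59.3 and 59.6, but the upper quartile was 1.24 in control and 27.4 in irradiated cells, so that more of the irradiated than of the control cells held some Ccl21a. The 10 fibroblast markers summed to 20.5 and 10.8 UMIs per 10000 in them, against 3.22 and 2.602 in the cells without Ccl11, and all 3 of these markers that reached the minimum were called lower in the latter. Their part in the differences below was not tested. Of 7900 genes tested against them, 179 (2.27%) were higher and 182 (2.3%) lower in the Ccl21a-high cells without Ccl11. These genes include Ccl21a and Pdpn themselves, which separated the kinds of cell, and the limit on Ccl11 held for the cells without Ccl11 only. With the Pdpn-positive cells held to Ccl21a under 20, 344 genes were higher and 230 lower.

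Against the Pdpn-positive cells, the cells without Ccl11 were rich in Ccl19, with log2 ratios of 3.21 in the control and 1.91 in the irradiated library. Cxcl14, a chemokine of epithelia, had 2.77 and 1.51. Among the 10 highest were Lypd1, a modulator of nicotinic receptors (4.22 and 2.81), Mfap4, a microfibril protein (4.49 and 3.01), Pthlh, the parathyroid hormone-like hormone (2.78 and 2.29), and S100a2 (4.10 and 2.76). The list of 15 immature mTEC genes split, with 2 higher (Ccl19 among them) and 3 lower (Pdpn, Krt15 and Ackr4, a scavenging receptor of CCL19 and CCL21). Il33, an alarmin of barrier cells, was lower, at -4.00 and -4.02, as were Reg3g, an antimicrobial lectin, at -3.85 and -4.11, and Cxcl12 at -1.71 and -1.57. Of 21 genes of glutathione and oxidative stress, Gpx3 was higher and 6 were lower, with Gsta4, a glutathione transferase, at -3.43 and -4.11.

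Against all other kept cells, 444 of 14608 genes (3.04%) were higher and 3180 (21.8%) were lower in the cells without Ccl11. The genes named here were picked from the 20 highest, after their values were seen, because their roles are known. Dcx, or doublecortin, had log2 ratios of 2.64 and 2.08, Scn3b, a sodium channel subunit, 2.36 and 2.08, Gpr139, an orphan receptor of the brain, 2.56 and 2.28, and Gfra4, a receptor of the GDNF family, 1.93 and 2.07. None of these 4 exceeded 1 in both libraries against Ccl21a-high cells with Ccl11, where the log2 ratios ran from 0.03 for Scn3b to 0.93 for Dcx. Lgi2, which did, had 2.51 and 2.29 against all other cells and 1.60 and 1.08 against cells with Ccl11. Scx, a tendon transcription factor (2.08 and 2.14), and Fzd2, a Wnt receptor (2.09 and 2.16), were also among the 20.

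The cells varied among themselves, and of 13 genes examined the UMIs of Tbata were the most concentrated in few cells. After thinning to 4000 UMIs, no Tbata UMI was found in 68.3% of control and 63.8% of irradiated cells, and the 37 control and 58 irradiated cells with most of it held 79.5% and 79.0% of its UMIs. The same number of cells, chosen anew for each gene, held 19.5% and 19.7% of the Ccl21a UMIs, 51.9% and 52.9% of those of Wfdc18, a secreted whey acidic protein, and 50.8% and 44.5% of those of Fabp5, a carrier of fatty acids. Spearman's rho over cells, with 366 control and 577 irradiated cells thinned to the same depth, is given as a description, since cells of a library share their pool of mice. Ccl21a had its highest rho with Ctsl (0.43 and 0.29) and Mgp, the matrix Gla protein (0.34 and 0.26). Krt14 paired with Acta2 (0.38 and 0.44) and Ly6a, or Sca-1 (0.32 and 0.45). Tbata paired with Cstb, or cystatin B (0.35 and 0.34). Ccl19 paired with Rgs5, a regulator of G-protein signalling (0.36 and 0.37), and was low where Sparc was high (-0.34 and -0.34). Gpx3 was high where Mgp was (0.52 and 0.46). Krt17 paired with Wfdc18 (0.45 and 0.42) and Rgs5 (0.45 and 0.41). These partners were ranked by the weaker rho of the 2 libraries or picked from the pairs in the heat map, so the like sign in both was fixed by the choice.

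**Figure D3:**
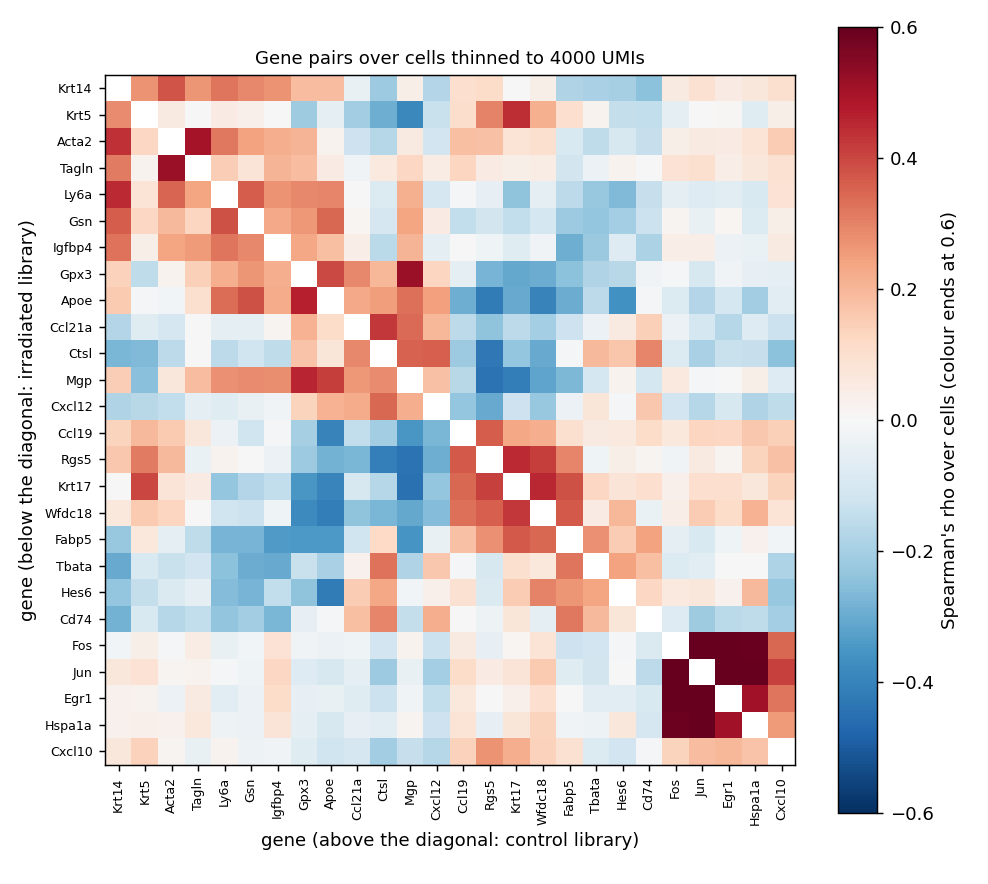
Each square is a pair of genes, coloured by Spearman's rho over single cells thinned to 4000 UMIs, above the diagonal for the control library (366 cells) and below it for the irradiated library (577 cells). Some pairs had like values in both libraries, such as Rgs5 with Krt17 (0.45 and 0.41), and others did not, such as Cxcl10 with Jun (0.41 and 0.18).

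Irradiation was compared first by the share of these cells. They made up 11.3% of kept control cells (10.2 to 12.5, exact Clopper-Pearson 95% interval) and 11.4% (10.6 to 12.3) of kept irradiated cells. On the log2 scale the ratio was 0.01, and its range of -0.24 to 0.27 spans 0. Of the Ccl21a-high cells within the other limits, they were 42.1% (38.8 to 45.5) and 42.2% (39.6 to 44.9). Pdpn-positive cells with low Ccl21a, by contrast, were scarcer after irradiation, at 4.06% (3.54 to 4.64) against 7.86% (6.95 to 8.84) in control. Each of those intervals lay apart from the other, and the summed fibroblast markers of these cells were also lower after irradiation, as given above. A share says nothing of the number of cells in the thymus.

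Between the libraries, 8956 genes had at least 100 UMIs over both. Of these, 19 (0.212%) had a log2 ratio, irradiated over control, of at least 1 and 41 (0.458%) of at most -1, and these are called higher and lower below. The whole range of the log2 ratio lay above 0 for 531 genes (5.93%) and below 0 for 385 (4.3%). The median log2 ratio was 0.01 over all genes tested and -0.01 over the same genes in all other kept cells. Of the 60 called genes, 9 had over 20% of a library's UMIs in 1 cell, among them Dppa3, a germ cell gene with 98.0% of its 205 control UMIs in 1 cell. At a minimum of 50 UMIs, 30 genes were called higher and 91 lower. Among cells with Ccl21a of 100 or more, 9 of the 19 and 24 of the 41 genes were called again. All other kept cells, given beside the results, include the other kinds of Ccl21a-high cell.

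Genes of the AP-1 and immediate early response, which cells switch on within minutes of stress or growth signals, were lower in the irradiated cells. Of 18 such genes tested, 11 were called lower and 0 higher, 17 had their whole range below 0, and the median was -1.05, with -1.0 in all other kept cells. Summed over the list, the level was 125.9 UMIs per 10000 in the control library, against 61.7 after irradiation. Fos was at 17.0 (16.6 to 17.4) and 6.13 (5.93 to 6.33). Its log2 ratio was -1.47 (-1.55 to -1.39). Jun was at 25.7 (25.2 to 26.2) and 12.8 (12.6 to 13.1), with -1.0 (-1.06 to -0.94). Atf3, a stress factor of the same family, was at 4.82 (4.62 to 5.04) and 1.22 (1.13 to 1.31), with -1.99 (-2.16 to -1.82). The intervals of the libraries lay apart for each of these 3 genes. Dusp1, a phosphatase of MAP kinases (-1.62), Zfp36, which destabilises inflammatory mRNAs (-1.51), and the Krüppel-like factors Klf2 (-1.43), Klf4 (-1.25) and Klf6 (-1.30) were also called lower.

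Chaperones of the heat shock response differed in the same direction. Of 13 tested, 2 were called lower and 0 higher, namely Hspa1b and Dnajb1, an Hsp70 and a partner of the Hsp70 chaperones. Hspa1b was at 13.01 (12.7 to 13.4) and 5.89 (5.70 to 6.09), with -1.14. Dnajb1 was at 6.08 (5.85 to 6.32) and 2.72 (2.59 to 2.86), with -1.16. The range lay below 0 for 10, and the median was -0.59, with -0.29 in all other kept cells. The chaperones of the endoplasmic reticulum and mitochondria had ranges that spanned 0, with 0.01 (-0.08 to 0.10) for Hspa5 and 0.05 (-0.10 to 0.21) for Hspd1. Within a library the genes of both lists went together over cells, with rho of 0.75 and 0.67 for Fos and Jun and 0.59 and 0.59 for Fos and Hspa1a. Cells with under 155.7 UMIs per 10000 over the 34 genes of both lists, the median of all the cells, were 33.3% of control and 60.4% of irradiated cells. Among those cells alone 9 genes were called lower and 23 higher, and among the others 20 and 4, in place of 41 and 19. Of the 41 genes, 4 were among the 9 and 15 among the 20. Since 13 of the 41 genes set the split, and each side has fewer UMIs under the same minimum, these counts show how the calls depend on the split and do not separate its part from that of irradiation. Both libraries passed through the same enzymatic digestion and sort, and handling of the 2 pools and irradiation cannot be told apart.

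**Figure D4:**
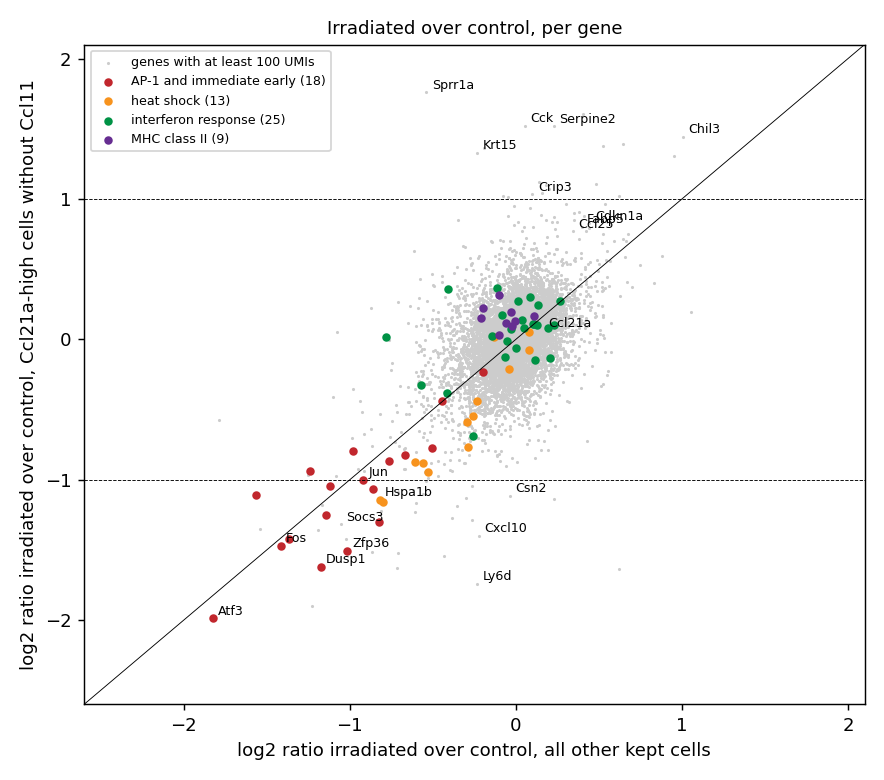
Each point is a gene with at least 100 UMIs, with the log2 ratio of irradiated over control in all other kept cells on the horizontal axis and in the Ccl21a-high cells without Ccl11 on the vertical axis, 1 gene (Dppa3) lying outside the axes. AP-1 genes (red, median -1.05) and heat shock genes (orange, median -0.59) lie mostly below 0 on both axes. Cxcl10 (-1.40 against -0.22) is also below 0 on both axes and lies below the diagonal.

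Cxcl10, a chemokine for activated T cells and NK cells that bear CXCR3, was called lower and stands on neither of those lists. Control cells held 13.3 (12.9 to 13.6) UMIs per 10000 against 5.02 (4.84 to 5.20) after irradiation, which gives a log2 ratio of -1.40 (-1.49 to -1.31). In Ccl21a-high cells with Ccl11 the levels were 14.2 and 7.90 (-0.84), in Pdpn-positive cells with low Ccl21a 12.5 and 3.22 (-1.96), and in all other kept cells 12.2 and 10.4 (-0.22). A UMI was found in 57.4% of control and 36.7% of irradiated thinned cells, against 14.3% and 16.1% of tuft-like cells (68.0% and 48.5% without thinning). Over cells, Cxcl10 went with Jun at rho of 0.41 in the control and 0.18 in the irradiated library. The log2 ratio was -0.20 (-0.40 to -0.00321) in cells low in AP-1 and heat shock UMIs (122 control and 350 irradiated) and -1.27 (-1.38 to -1.17) in cells high in them (244 and 229). The difference was thus larger among cells high in those genes, which were a larger share of the control cells, and their part in it was not tested. Cxcl10 lies at chr5:92346638-92348889 on the minus strand. The 250 bases before its start, at chr5:92348890-92349139 (RefSeq, GRCm38.p6), are shown because its promoter carries letters of 3 of the 4 motifs, printed in capitals.
Cxcl10: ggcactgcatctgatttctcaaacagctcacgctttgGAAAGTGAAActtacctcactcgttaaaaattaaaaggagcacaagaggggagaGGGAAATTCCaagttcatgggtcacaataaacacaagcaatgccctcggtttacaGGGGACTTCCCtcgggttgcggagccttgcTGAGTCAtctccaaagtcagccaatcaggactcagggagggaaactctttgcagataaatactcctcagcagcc

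In order from the left the capitals are an ISRE (GAAANNGAAA, 213 to 204 bases before the start), a kappaB match (159 to 150), a pair of overlapping kappaB matches (104 to 94) and an AP-1 match (TGANTCA, 74 to 68). TATAAA was not found. Of 27025 promoters of this length, 3.46% held the ISRE letters, 8.23% a kappaB match, 7.82% the AP-1 letters and 14.3% TATAAA. Of 20 interferon response genes with a promoter in the table, 11 (55%) held the ISRE letters, and of 10 listed chemokine genes, 3 (30%) did. Of 16 AP-1 and immediate early genes, 0 held the AP-1 letters and 5 (31.2%) held a kappaB match. These are matches of letters and not binding sites.

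Interferon response genes went in both directions. Of 25 tested, 0 were called either way, 6 had their range above 0 and 3 below (5.93% and 4.3% of all genes tested), and the median was 0.08, with 0.02 in all other kept cells. Ifitm3, which blocks virus entry and was the most abundant, was at 72.1 (71.3 to 72.9) and 87.0 (86.3 to 87.8). Its log2 ratio was 0.27 (0.24 to 0.30). Ifit3 had 0.37 (0.23 to 0.51) and Iigp1, an interferon-γ-induced GTPase, had -0.33 (-0.44 to -0.21). Of 9 MHC class II genes, 0 were called and 5 had their range above 0 and 0 below, with a median of 0.15 and -0.06 in all other kept cells. Among 15 MHC class I genes, 0 were called, with 3 ranges above 0 and 4 below.

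The other chemokines tested differed less. Of 13 tested, Cxcl10 alone was called, and the median was 0.10. Ccl21a had 0.06 (0.04 to 0.09), from levels of 124 (123 to 125) and 129.5 (129 to 130.4), among cells that had all been chosen for at least 60. Ccl25 had 0.77 (0.53 to 1.01), though 1 cell held 19.7% of its control UMIs. Cxcl12 had 0.27 (0.09 to 0.45), Ccl19 0.19 (0.09 to 0.29) and Cxcl14 -0.51 (-0.73 to -0.28). Ccl2, a monocyte chemokine under the minimum of UMIs, had 68 control and 20 irradiated UMIs, of which 1 control cell held 35.3%.

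Socs3, the feedback inhibitor of STAT3 signalling, was at 6.69 (6.45 to 6.94) and 2.68 (2.55 to 2.82). Its log2 ratio was -1.32 (-1.44 to -1.19), with -1.06 in all other kept cells. Within cells low in AP-1 and heat shock UMIs it was -0.37 (-0.69 to -0.03), and within cells high in them -0.89 (-1.03 to -0.75), so that neither side alone reached the size that was called. It was the only call among 12 tested genes of STAT3 and cytokine feedback. Pim1, a kinase induced by STAT factors, had -0.88 (-1.07 to -0.69). Of 19 receptors of regeneration signals, 0 were called, with 0.25 (0.14 to 0.35) for Lifr, the receptor of leukaemia inhibitory factor, at 5.59 and 6.63, and 0.22 (0.01 to 0.44) for Osmr.

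Targets of p53, which DNA damage activates, had small differences in most cases. Of 20 tested, 0 were called higher and 1 lower. The range lay above 0 for 5 and below 0 for 1, against 5.93% and 4.3% of all genes tested. The median was 0.20, with 0.09 in all other kept cells. Cdkn1a, the cell cycle inhibitor p21, was at 0.532 (0.465 to 0.606) and 0.945 (0.869 to 1.03). Its log2 ratio was 0.83 (0.52 to 1.14), with 0.44 in all other kept cells. Ccng1, or cyclin G1, had 0.58 (0.24 to 0.92), Bax, which permeabilises mitochondria, 0.31 (0.12 to 0.50), and Mdm2, the ubiquitin ligase of p53, 0.21 (-0.13 to 0.56). The gene called lower, Btg2 (-1.07), is also on the immediate early list. In cells low and high in AP-1 and heat shock UMIs, the log2 ratio of Cdkn1a was 0.93 and 1.00.

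Fabp5 was higher in the irradiated cells without reaching the size that was called. It was at 18.0 (17.6 to 18.4) and 31.4 (30.9 to 31.8) UMIs per 10000. Its log2 ratio was 0.80 (0.75 to 0.86). In Ccl21a-high cells with Ccl11 the log2 ratio was 1.18, and in all other kept cells, whose levels were 50.4 and 66.3, it was 0.40. It was 0.83 and 0.76 in cells low and high in AP-1 and heat shock UMIs. Fabp4, a related carrier, was called lower (-1.54), but 1 cell held 54.6% of its control and 34.7% of its irradiated UMIs. Over cells, Fabp5 paired with Ubd, a ubiquitin-like protein (0.40 and 0.40), and Krt17 (0.38 and 0.37).

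Among genes called higher, Serpine2, an inhibitor of serine proteases, was at 0.169 (0.132 to 0.212) and 0.485 (0.431 to 0.545). Its log2 ratio was 1.52 (1.02 to 2.05), with 0.55 in Ccl21a-high cells with Ccl11 and 0.23 in all other kept cells. Crip3 was at 0.567 (0.498 to 0.643) and 1.16 (1.08 to 1.25), with 1.03 (0.74 to 1.33). Its log2 ratio was 0.79 in Ccl21a-high cells with Ccl11, 0.89 in Pdpn-positive cells with low Ccl21a and 0.10 in all other kept cells. The shares of cells with a Crip3 UMI given above lay below those of tuft-like cells and above those of cells with Ccl11. Krt15, a keratin of stem cells in stratified epithelium, was at 0.0843 (0.0591 to 0.117) and 0.214 (0.178 to 0.255), with 1.33 (0.61 to 2.11). It was the only keratin called among 9 tested. Sprr1a, a precursor of the cornified envelope, had 1.76 (1.09 to 2.49), Cck, or cholecystokinin, 1.52 (0.86 to 2.23), and Il2ra, the interleukin 2 receptor alpha chain, 1.07 (0.51 to 1.67). For some of these 1 cell held much of the UMIs, namely 37.8% of control Sprr1a and 26.8% of control Cck UMIs. Among the lowest, Ly6d, a surface protein of epithelium and lymphoid progenitors, had -1.74 (-2.09 to -1.39), with -0.23 in all other kept cells and 25.3% of its control UMIs in 1 cell, and Nupr1, a stress-induced chromatin protein, -1.63 (-2.40 to -0.90). Of the 19 genes called higher, 14 had a log2 ratio above 0 in all other kept cells, and of the 41 called lower, 38 had one below 0 there. The median there was -0.01 over all genes tested. Only 1 of the 19 and 14 of the 41 reached the called size there in the same direction.

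The other lists held few calls. Of 22 collagen and matrix genes, 12 of hemidesmosomes and adhesion, 18 of RANK, CD40 and NF-kB, 12 of the Notch pathway, 9 of the Wnt pathway, 11 of BMP and TGF-beta, 16 TEC transcription factors and 19 of glutathione and oxidative stress, 0 were called in either direction. Cd40, a receptor that receives signals of thymocytes, had 0.94 (0.37 to 1.54), and Tnfrsf11a, which encodes RANK, had -0.21 (-0.50 to 0.08). Of 8 cTEC genes, 0 were called and 6 had their range above 0, against 5.93% of all genes tested. Their median was 0.38, with 0.42 in all other kept cells. The cTEC genes Prss16 and Psmb11 were limited in choosing the cells, so nothing is read from this count or median. No gene was called among 8 of mature medullary TECs, 12 of the cell cycle beyond those of the limits, 10 of growth factors and secreted factors, or 7 of checkpoint and costimulatory ligands. Csn2, a milk casein on the list of Aire-dependent antigens, was called lower, with 100 control and 64 irradiated UMIs and a log2 ratio of -1.12 (-1.78 to -0.47).

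**Figure D5:**
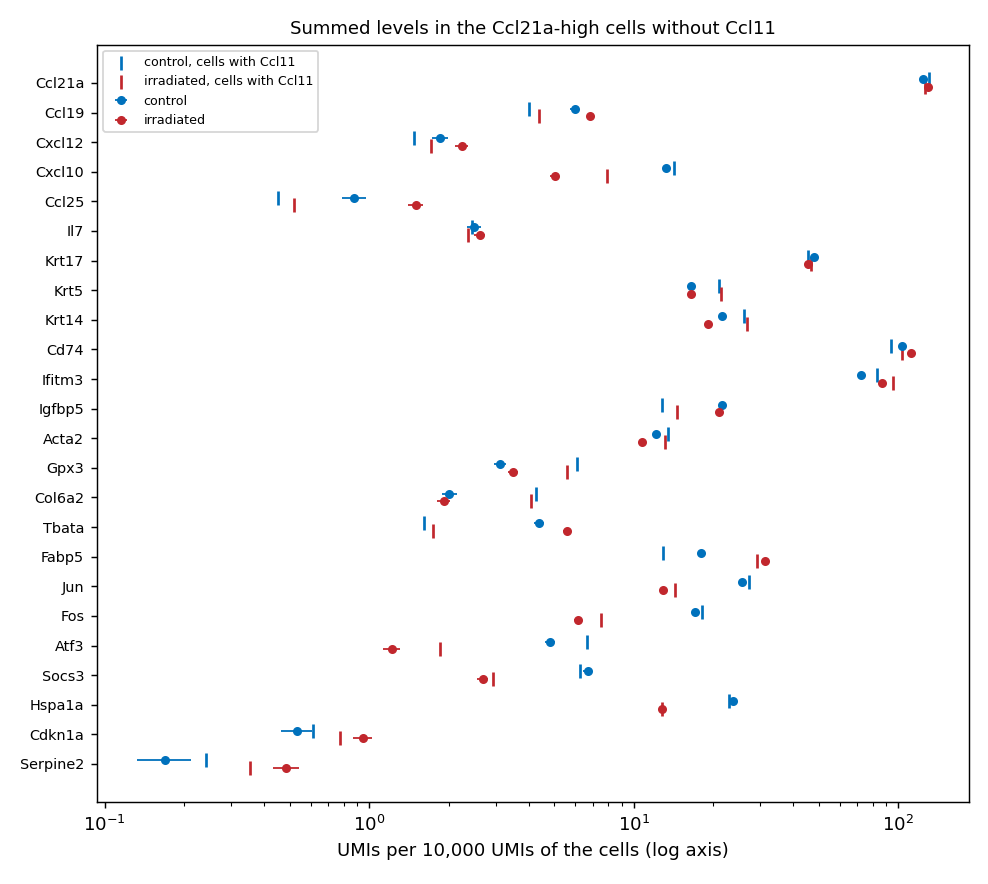
Summed UMIs per 10000 on a log axis for 24 genes in the Ccl21a-high cells without Ccl11, as points with exact Poisson 95% intervals (control blue, irradiated red), with the levels in Ccl21a-high cells with Ccl11 as vertical ticks of the same colours. Fos, Atf3, Socs3 and Cxcl10 have the red point well left of the blue, Fabp5, Cdkn1a and Serpine2 have it to the right, and Ccl21a and Krt5 have both points nearly together.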

How the data were processed

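The authors deposited UMI counts per gene and barcode for 2 libraries, made with Cell Ranger (version 5.1 per the labels, 5.0.1 per the file headers) on mm10. The unit is counts, and 0 columns belonged to no sample. Cells were kept and chosen by the limits given above. With 1 library per condition, UMIs were summed per library and compared by size: a gene was called at a log2 ratio of at least 1 either way with at least 100 UMIs over both libraries. Intervals are exact (95%) and cover counting error only. The scripts (Python 3.11.15, numpy 2.4.6, scipy 1.17.1, pandas 2.3.3) were tested on simulated data. Named genes were those of the limits, the 15 highest and lowest between libraries and against cells with Ccl11, the 10 against Pdpn-positive cells, the 20 highest against other cells, and of each of 38 lists the 4 most abundant members and any called. A few further members of the lists were chosen after their values were seen. The cells and lists were chosen with earlier results of these data known. Values of some list members are not reported here.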

Additional observations from a re-analysis of the deposited data

Results flagged for a closer look

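Csn2, the milk protein beta-casein, differed in direction between the kinds of Ccl21a-high cell. Its log2 ratio, irradiated over control, was -1.12 (-1.78 to -0.47) in the cells without Ccl11 and 0.93 (0.42 to 1.47) in those with Ccl11, and the difference was not tested. No cell held more than 12.1% of its UMIs in either kind of cell and library.

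Barcodes with 2000 detected genes or fewer, which were not kept, also held Ccl21a at 60 or more UMIs per 10000. They numbered 120 of 1548 (7.75%, exact 95% interval 6.47 to 9.20) in the control library and 124 of 1923 (6.45%, 5.39 to 7.64) in the irradiated library. Their median UMIs were 3349 and 3134.5, their median mitochondrial share was 13.4% and 10.99%, and 59 and 60 of them had under 2 Ccl11.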

How the results depend on the processing

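The log2 ratio of the share of cells between libraries lay between -0.05 and 0.06 under 10 alternatives, and its range spanned 0 in each. The count of genes called higher (19) became 30 at a minimum of 50 UMIs, 1983 with no minimum and 4 among cells high in AP-1 and heat shock UMIs. Like counts hid other genes: of the 19, only 9 were among the 18 called higher at Ccl21a of 100 or more, and 5 among the 23 in cells low in those UMIs. The count called lower (41) became 91, 2226, 9 among cells low and 20 among cells high in those UMIs. Of the 41, 24 were among the 32 called lower at Ccl21a of 100 or more. Against Pdpn-positive cells, 344 genes in place of 179 were higher where those cells had Ccl21a under 20. Dppa3 reversed to 0.38 at a mitochondrial share under 10% and 1.40 among cells high in AP-1 and heat shock UMIs, and Sln to 1.01 at Ccl21a of 100 or more and 0.97 among cells low in those UMIs; 1 cell held over 50% of the control UMIs of each. The split by AP-1 and heat shock UMIs was chosen after seeing the data. For 190 genes between libraries, 1880 of 2090 values moved less than the counting interval, 206 moved more and 4 reversed. For 8 lists, 2 of 48 values moved more than the median counting interval of the list. The 100 results against other cells were judged by a fixed shift of the log2 ratio instead of the counting interval, and 39 of 160 values moved by that rule. The cause was not tested. No paired analysis was possible because the labels give 1 library per condition, and for the same reason no replicate could be left out. The minimum of 100 UMIs was a choice.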
